A study of Homo sapiens with 6 samples.

Results

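The genes described here encode the proteins of the mitochondrial ribosome, chosen as every locus of the deposited expression table whose gene name starts with MRPL or MRPS followed by digits. There were 61 such loci among 6357 in the table, of which 4926 carried a gene name. By symbol, 39 belonged to the large subunit (MRPL) and 22 to the small subunit (MRPS). The study compared HepG2 cells, a human hepatocellular carcinoma line, with HepG2 cells in which FN3K, the kinase that phosphorylates fructosamines on glycated proteins, had been knocked out with CRISPR-Cas. Both genotypes (WT and FN3K KO) were grown in Eagle's Minimum Essential Medium with fetal bovine serum, and 3 poly(A)-selected RNA-seq libraries were made from each. How many KO clones gave rise to the 3 KO libraries was not named, so the p-values measure the spread between plates and cannot tell the FN3K deletion from other features of the KO line. Levels are FPKM, fragments per kilobase of transcript scaled to the reads mapped in the library, which is a level per length.

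Mitochondria keep a small genome of their own, and the messenger RNAs it encodes are read by a dedicated ribosome inside the organelle. The ribosomal RNAs of this particle come from mitochondrial DNA, whereas all of its proteins are encoded in the nucleus, made on cytosolic ribosomes and imported. Some of these proteins have counterparts in bacterial ribosomes and others are found only in mitochondria, and the particle makes core subunits of the respiratory chain and of ATP synthase.

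The targeted gene and markers of cell type were looked at first. FN3K was at 27.7, 21.9 and 23.2 FPKM in the WT libraries and at 0.782, 1.03 and 0.704 FPKM in the KO libraries. Of 8 hepatocyte markers 7 were listed, all but ALB. Their summed levels were 5881 to 6066 FPKM in WT and 12551 to 13876 FPKM in KO libraries. Of 8 markers of blood, fibroblast, endothelial and muscle cells 0 were listed. The filter on loci is unknown, so an unlisted marker cannot be taken as absent from the cells. The summed FPKM of a library over all loci ran from 289983 to 314164, and the sequencing depth behind these values is unknown. In bulk RNA a change in the make-up of the cells and a change in RNA per cell cannot be told apart. Of the listed hepatocyte markers 5 were higher in KO, where 21.2% of all loci were. TTR had the greatest log2 fold change (2.90), and AFP (2.01) and APOA1 (1.14) carried most of the gain in the sum. HNF4A was lower (-0.35, limma adjusted p = 6.62e-04) and SERPINA1 was not called (0.082, adjusted p = 0.45). The part of these marker changes in the results below was not tested.

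The promoters of 4 members are shown because the results below turn on these genes. MRPL45 and MRPS27 were called lower in the main fit and in every alternative fit, and MRPL17 and MRPL52 had the greatest called rises. Each window spans 250 bases before to 50 bases after the gene's start in RefSeq on GRCh38.p14 and reads 5′ to 3′ along the gene. Capitals mark letters that match, on either strand, the core motifs of YY1 (AAGATGG), the ETS family (CCGGAAG), NRF1 (GCATGCG) or the E-box (CACGTG), all named from what is generally known of promoters of nuclear mitochondrial genes.
MRPL45 promoter, chr17:38296918-38297217, plus strand: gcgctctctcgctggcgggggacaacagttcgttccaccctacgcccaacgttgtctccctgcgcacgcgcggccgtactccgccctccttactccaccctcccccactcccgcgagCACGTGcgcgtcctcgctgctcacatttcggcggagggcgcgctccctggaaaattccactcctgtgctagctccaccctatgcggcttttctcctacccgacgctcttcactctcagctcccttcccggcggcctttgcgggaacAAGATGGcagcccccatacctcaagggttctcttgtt
MRPS27 promoter, chr5:72320191-72320490, minus strand: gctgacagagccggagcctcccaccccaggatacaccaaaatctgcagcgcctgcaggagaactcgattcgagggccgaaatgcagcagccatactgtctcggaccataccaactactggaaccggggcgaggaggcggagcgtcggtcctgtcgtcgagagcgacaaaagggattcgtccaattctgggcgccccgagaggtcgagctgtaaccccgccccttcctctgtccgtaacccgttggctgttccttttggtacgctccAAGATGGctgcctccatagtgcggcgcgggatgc
MRPL17 promoter, chr11:6683291-6683590, minus strand: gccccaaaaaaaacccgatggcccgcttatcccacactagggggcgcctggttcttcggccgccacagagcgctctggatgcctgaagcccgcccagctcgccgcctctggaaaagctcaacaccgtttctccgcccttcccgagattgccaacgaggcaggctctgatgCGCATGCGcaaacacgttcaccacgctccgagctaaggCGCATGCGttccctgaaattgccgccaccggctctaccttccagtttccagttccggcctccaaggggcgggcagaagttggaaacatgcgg
MRPL52 promoter, chr14:22829637-22829936, plus strand: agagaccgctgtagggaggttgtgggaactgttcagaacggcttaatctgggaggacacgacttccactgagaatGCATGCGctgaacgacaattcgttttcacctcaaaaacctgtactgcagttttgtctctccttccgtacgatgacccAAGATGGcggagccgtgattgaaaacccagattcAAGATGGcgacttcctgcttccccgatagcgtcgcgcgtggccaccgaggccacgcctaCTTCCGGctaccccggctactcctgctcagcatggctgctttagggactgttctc
In the MRPL45 and MRPS27 windows the YY1 letters began 13 and 16 bases after the start. The MRPL17 window held NRF1 letters only, which overlap on both strands because the motif is close to its own reverse complement. The MRPL52 window held letters of the YY1, ETS and NRF1 motifs together.

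Mitochondrial ribosomal protein genes moved little between WT and FN3K KO cells, and most of what moved was slightly lower in KO. Log2 fold changes of KO over WT were estimated on log2(FPKM + 1) with limma, a linear model fitted across all loci, and a locus was called at a Benjamini-Hochberg adjusted p under 0.05. On that rule 22 of the 61 members (36.1%) were lower in KO against 36.5% of all loci, and 4 members (6.56%) were higher against 21.2% of all loci. The remaining 35 were not called, so 42.6% of the members were called against 57.7% of all loci. The median log2 fold change of the members was -0.17, beside -0.14 over all loci. Their middle 50% lay between -0.32 and -0.034, narrower than the -0.42 to 0.21 of all loci. A log2 fold change beyond 0.5 in size was reached by 4 members (6.56%) against 33.0% of all loci. With libraries centred on a common median the split became 6 higher and 15 lower, where 25.5% and 31.0% of all loci were called higher and lower, and the medians became -0.10 for the members and -0.069 for all loci.

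The count of lower members depended on single libraries. It was 12 without WT replicate 3 and 14 without KO replicate 1. Over all loci the lower calls also fell, from 2322 in the main fit to 1831 and 1916 in these 2 fits. The library adjustment of Ballgown adds each library's summed expression as a covariate, and was fitted here without limma's sharing of variance across loci. Its calls were 1 higher (MRPL35) and 4 lower (MRPL10, MRPL45, MRPL48 and MRPS27), where 9.53% and 8.20% of all loci were called. How much of the loss of calls comes from the covariate and how much from the test was not separated.

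**Figure D1:**
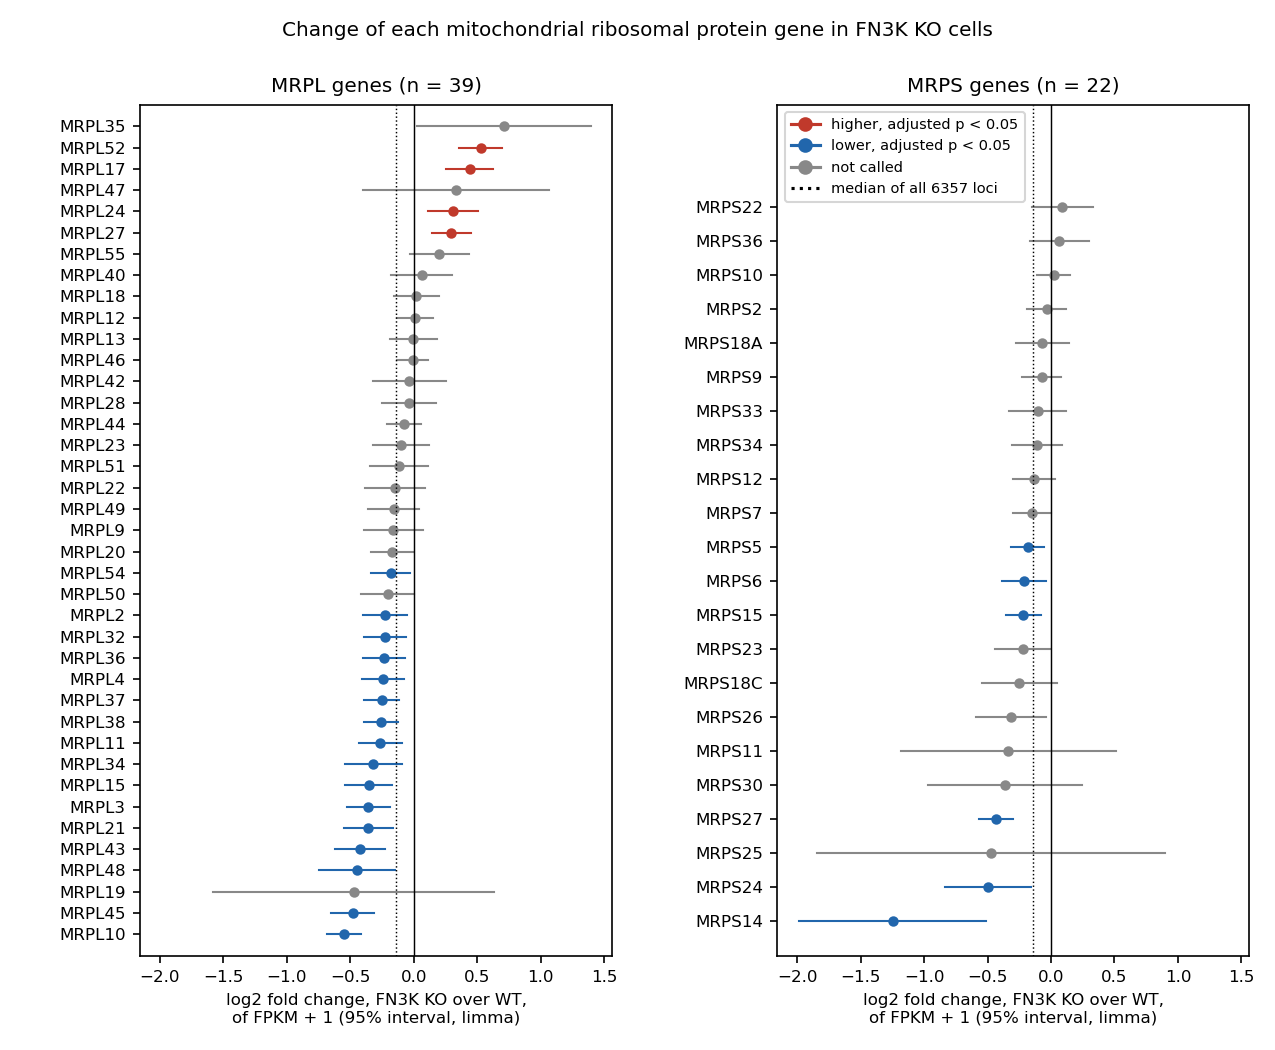
Log2 fold change (FN3K KO over WT, of FPKM + 1) of each of the 39 MRPL and 22 MRPS genes, with 95% intervals from limma, 3 libraries per genotype. Red points were called higher and blue points lower at an adjusted p under 0.05, and the dotted line is the median of all loci at -0.14, around which most members lie.

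Summed over the family, the 61 genes reached 1362, 1439 and 1482 FPKM in WT libraries and 1241, 1285 and 1286 FPKM in KO libraries. Every KO sum was below every WT sum. The 22 members with all KO libraries below all WT libraries made up 36.1% of the family, beside 39.8% of all loci, and the 5 with all KO libraries above all WT libraries made up 8.20%, beside 23.6% of all loci. The members were of low to moderate level, with means over the 6 libraries from 0.957 to 57.0 FPKM, and 60 of them had a mean of at least 1 FPKM. Among the 48 members with a mean of at least 10 FPKM 4 were higher (8.33%) and 19 lower (39.6%). Of the 3220 loci with means from 10 to 70 FPKM 22.2% were higher and 39.4% lower. A log2 fold change beyond 0.5 in size was reached by 4.17% of these members and by 22.8% of those loci. Among the 13 members with lower means 0 were higher and 3 lower (23.1%), beside 21.2% and 36.5% of all loci.

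**Figure D2:**
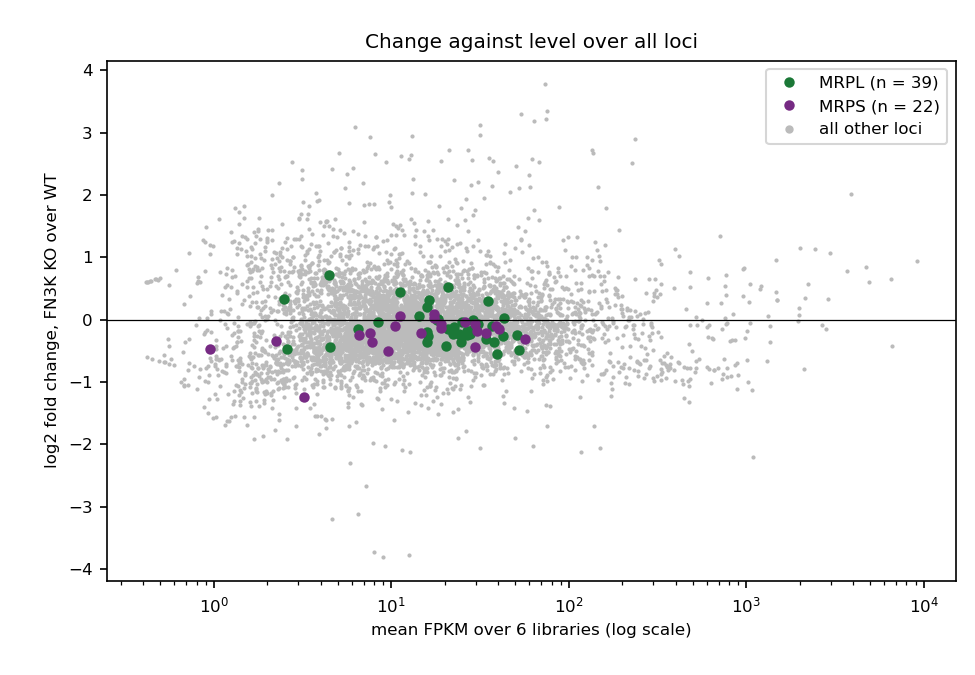
Log2 fold change (FN3K KO over WT) against mean FPKM over 6 libraries on a log scale, for MRPL genes (green), MRPS genes (purple) and all other loci (grey). The members sit in the narrow central band of the cloud, with 4 of 61 beyond 0.5 in size.

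The subunits were then compared with each other. Of the 39 large subunit genes 4 were higher (10.3%), 16 lower (41.0%) and 19 not called (median log2 fold change -0.16). Of the 22 small subunit genes 0 were higher, 6 lower (27.3%) and 16 not called (median -0.20). Over all loci 21.2% were higher and 36.5% lower. Whether the subunits differ in these counts was not tested. The ratio of the summed FPKM of the large subunit genes to that of the small subunit genes was 2.10, 2.05 and 2.12 in WT libraries and 2.15, 2.07 and 2.20 in KO libraries. These ratios overlap between the genotypes. Centred on a common median, the large subunit gave 6 higher and 11 lower and the small subunit 0 higher and 4 lower, where 25.5% and 31.0% of all loci were higher and lower. Without WT replicate 3 the counts of lower genes were 10 for the large and 2 for the small subunit, and without KO replicate 1 the large subunit again had 10. In these fits 1831 and 1916 of all loci were lower, beside 2322 in the main fit. The products of MRPS18A and MRPS30 sit in the large subunit despite their symbols, and moving them there left 4 higher and 16 lower of 41 large subunit genes and 0 higher and 6 lower of 20 small subunit genes.

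Counts were also taken by origin. The 38 genes with a bacterial counterpart gave 3 higher (7.89%) and 15 lower (39.5%), with a median log2 fold change of -0.17. The 23 mitochondria-specific genes gave 1 higher (4.35%) and 7 lower (30.4%), with a median of -0.18. Over all loci 21.2% were higher and 36.5% lower. Whether these classes differ was not tested.

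Among large subunit genes that fell, MRPL10 had the lowest log2 fold change. It encodes the protein that anchors the flexible stalk where translation factors bind, and lies at chr17:47823272-47831534 on the minus strand (GENCODE release 29, GRCh38). MRPL10 was at 45.5, 46.4 and 48.9 FPKM in WT and at 33.0, 32.2 and 30.2 FPKM in KO libraries. The groups lay well apart, and the log2 fold change was -0.55 (SE 0.06, limma adjusted p = 7.28e-05). MRPL45, a mitochondria-specific protein at the exit tunnel that helps hold the ribosome at the inner membrane, lies at chr17:38297023-38323218 on the plus strand. It had the highest mean of the large subunit genes (52.4 FPKM), with 67.1, 59.2 and 57.2 FPKM in WT and 46.3, 40.5 and 43.8 FPKM in KO libraries. All KO libraries were below all WT libraries (log2 fold change -0.48, SE 0.08, limma adjusted p = 7.25e-04).

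MRPL48, a mitochondria-specific protein, was low throughout, at 6.02, 5.30 and 4.86 FPKM in WT and 3.62, 3.49 and 3.95 FPKM in KO libraries. The groups did not overlap and the log2 fold change was -0.45 (limma adjusted p = 0.019), but the call was lost without WT replicate 1 (adjusted p = 0.053) and without KO replicate 1 (adjusted p = 0.051). MRPL37, the gene with the next highest mean of the large subunit (51.4 FPKM), fell from 58.2, 52.7 and 56.8 to 46.8, 49.0 and 44.6 FPKM (log2 fold change -0.25, limma adjusted p = 0.007). MRPL19, the counterpart of bacterial bL19, was at 0.841, 4.93 and 3.96 FPKM in WT and 3.60, 1.43 and 0.816 FPKM in KO libraries. Its groups overlapped across nearly the whole range, and the log2 fold change of -0.47 was not called (limma adjusted p = 0.43). The other 12 lower large subunit genes had log2 fold changes from -0.42 (MRPL43) to -0.18 (MRPL54).

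The 4 higher members were all large subunit genes. MRPL52, a mitochondria-specific protein at chr14:22829879-22835037 on the plus strand, was at 16.4, 17.4 and 17.0 FPKM in WT and 25.6, 26.7 and 22.4 FPKM in KO libraries. The gap between the groups was wider than the spread within either (log2 fold change 0.53, SE 0.08, limma adjusted p = 4.28e-04). MRPL52 lies in a stretch of chromosome 14 from ABHD4 to FBXO33 in which 42 of 50 listed loci were higher and 1 lower (median 0.60 on the log2 scale). Over all loci 21.2% were higher and 36.5% lower. The stretch was chosen with earlier results of these data known, so its count is no separate evidence. What moves this stretch was not tested. MRPL17, the counterpart of bacterial bL17 at chr11:6680782-6683401 on the minus strand, was at 8.64, 9.50 and 10.0 FPKM in WT and 13.7, 12.7 and 12.9 FPKM in KO libraries. Again no KO library reached down to the WT range (log2 fold change 0.44, SE 0.08, limma adjusted p = 0.002).

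MRPL27, whose bacterial counterpart reaches towards the peptidyl transferase centre, was at 30.1, 30.1 and 33.5 FPKM in WT and 36.3, 40.9 and 38.5 FPKM in KO libraries (log2 fold change 0.30, limma adjusted p = 0.005). MRPL24, the counterpart of bacterial uL24, rose from 13.9, 13.7 and 15.7 to 16.5, 18.0 and 20.0 FPKM (log2 fold change 0.31, limma adjusted p = 0.015), and lost its call without WT replicate 2 or KO replicate 3 (adjusted p = 0.059 and 0.058). In both genes all KO libraries lay above all WT libraries. The highest log2 fold change of the family, 0.71 for MRPL35, was not called (limma adjusted p = 0.071). MRPL35 was at 1.39, 3.70 and 4.78 FPKM in WT and 4.84, 6.85 and 5.21 FPKM in KO libraries, so the groups were barely apart, with WT replicate 1 the lowest. Without WT replicate 3 it was called (log2 fold change 0.97, limma adjusted p = 0.033). It was also called on a common 75th percentile, on a common median, with replicate numbers as a block and with the Ballgown adjustment. With single libraries left out its log2 fold change went down to 0.33 and its limma adjusted p up to 0.21. MRPL47, counterpart of bacterial uL29, overlapped between genotypes (log2 fold change 0.33, limma adjusted p = 0.40).

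**Figure D3:**
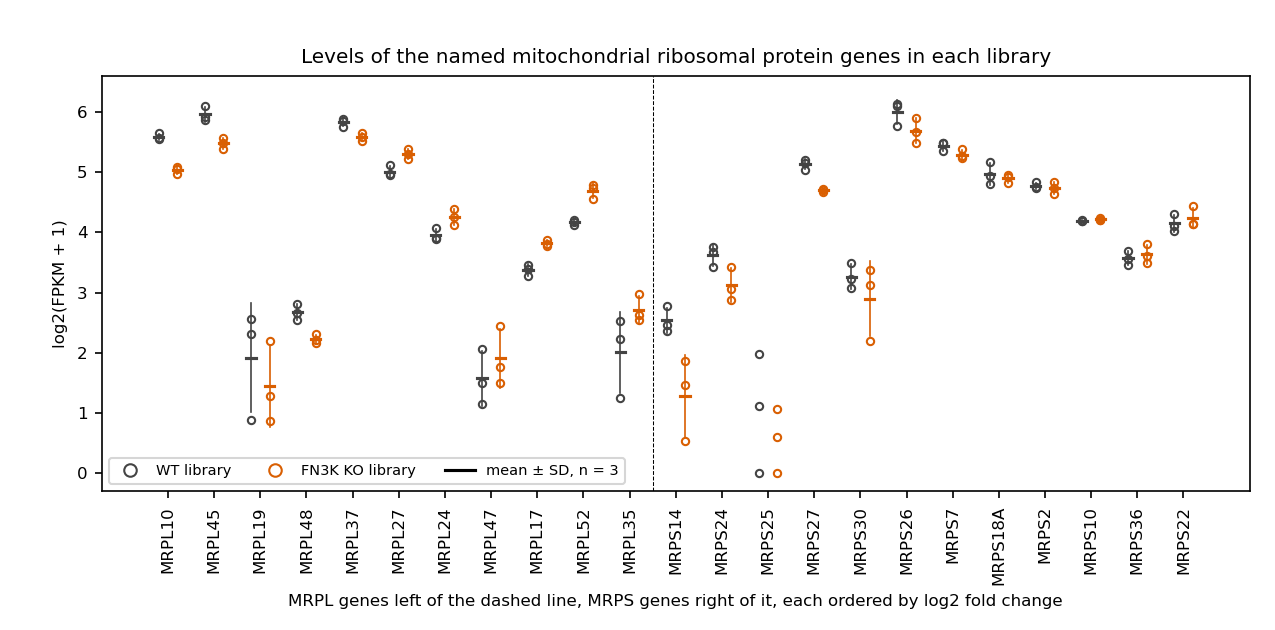
Level of each named member in each library as log2(FPKM + 1), WT in grey and FN3K KO in orange, with bars for the mean ± SD of 3 libraries (none for MRPS25, which is listed at 0 in 1 library of each genotype). MRPL10, MRPL45 and MRPS27 show tight, separated groups, whereas members of low level such as MRPL19, MRPL47 and MRPS25 scatter within each genotype.

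Among small subunit genes MRPS14 had the greatest change and was the family's single gene beyond a log2 fold change of 1 in size with an unadjusted p under 0.05, a rule that 7.63% of all loci met. MRPS14 encodes the counterpart of bacterial uS14 and lies at chr1:175010789-175023425 on the minus strand. It was at 4.52, 5.85 and 4.16 FPKM in WT and at 1.76, 2.63 and 0.454 FPKM in KO libraries. All KO libraries were below all WT libraries and KO replicate 3 was the lowest (log2 fold change -1.25, SE 0.33, limma adjusted p = 0.010). Omitting single libraries gave log2 fold changes from -1.53 to -0.87. The listed transcript is annotated as a target of nonsense-mediated decay, and MRPS14 shares 351 exonic bases with CACYBP on the opposite strand.

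MRPS27, a pentatricopeptide repeat protein of the small subunit at chr5:72219409-72320646 on the minus strand, was at 35.6, 31.9 and 34.5 FPKM in WT and at 24.9, 24.4 and 25.3 FPKM in KO libraries. The KO libraries were nearly equal and lay below all WT libraries (log2 fold change -0.43, SE 0.06, limma adjusted p = 3.81e-04). MRPS24, the counterpart of bacterial uS3, was at 9.76, 11.7 and 12.5 FPKM in WT and 7.34, 9.79 and 6.31 FPKM in KO libraries. Its groups overlapped by 1 library, and the call (log2 fold change -0.50, limma adjusted p = 0.019) was lost when WT replicate 2 or 3 or KO replicate 1 or 3 was left out, with adjusted p up to 0.082. MRPS24 shares 606 exonic bases with the read-through gene URGCP-MRPS24, so reads of both cannot be told apart. The other 3 lower small subunit genes, MRPS5, MRPS6 and MRPS15, had log2 fold changes from -0.22 to -0.18.

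The remaining named small subunit genes were not called. MRPS26, which had the highest mean of the small subunit (57.0 FPKM), was at 53.2, 67.6 and 69.1 FPKM in WT and 43.9, 58.8 and 49.5 FPKM in KO libraries (log2 fold change -0.32, limma adjusted p = 0.052). MRPS7, with a mean of 40.3 FPKM, had a log2 fold change of -0.15 (limma adjusted p = 0.081). In both the genotypes overlapped. MRPS25 was listed at 0, 2.96 and 1.16 FPKM in WT and at 0.516, 1.10 and 0 FPKM in KO libraries, on a transcript annotated as a target of nonsense-mediated decay. MRPS2, MRPS10, MRPS22 and MRPS36 had log2 fold changes from -0.035 to 0.091, and the product of MRPS36 is now known as a subunit of the 2-oxoglutarate dehydrogenase complex rather than of the ribosome. MRPS10 was the steadiest of these, at 17.5, 17.2 and 17.2 FPKM in WT and 17.5, 17.4 and 17.8 FPKM in KO libraries, with a 95% interval of its log2 fold change from -0.11 to 0.15. MRPS18A and MRPS30 had log2 fold changes of -0.067 and -0.36 (limma adjusted p = 0.55 and 0.27).

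Genes that work with the mitochondrial ribosome gave a mixed picture around a low median. Among 5 listed ribosomal proteins with other names, CHCHD1, a small subunit protein, was higher (log2 fold change 0.43, limma adjusted p = 0.007) and ICT1, also known as MRPL58 and active in the large subunit as a peptidyl-tRNA hydrolase, was lower (-0.23, limma adjusted p = 0.014), a call lost without WT replicate 3 (adjusted p = 0.052). With the Ballgown adjustment neither was called. Of 15 listed genes for ribosome assembly and rRNA modification 0 were higher and 8 lower, beside 21.2% and 36.5% of all loci, with a median of -0.27. RPUSD4, a pseudouridine synthase that acts on the large ribosomal RNA, fell from 12.5, 13.0 and 12.0 to 7.75, 8.57 and 7.32 FPKM (log2 fold change -0.60, limma adjusted p = 3.99e-04). MRM1, a methyltransferase for the same RNA, had a log2 fold change of -0.54 (limma adjusted p = 0.015), a call lost without WT replicate 2. The count of 8 became 4 without WT replicate 2 and 5 without WT replicate 3, with 1 gene higher without WT replicate 1 or 3. Without WT replicate 2 or 3 the lower calls over all loci fell from 2322 to 1893 and 1831. With the Ballgown adjustment the list gave 1 higher and 0 lower.

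Of 7 listed translation factors 1 was higher and 2 lower, beside 21.2% and 36.5% of all loci. LRPPRC, which stabilises mitochondrial messenger RNAs, was at 67.7, 75.6 and 73.3 FPKM in WT and 45.3, 45.8 and 42.3 FPKM in KO libraries. It stood clear of the spread within either genotype (log2 fold change -0.69, SE 0.06, limma adjusted p = 2.70e-05). TUFM, the mitochondrial elongation factor Tu, fell by 0.29 on the log2 scale (limma adjusted p = 0.001), and OXA1L, which inserts new proteins into the inner membrane, rose by 0.20 (limma adjusted p = 0.010).

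Of 10 listed mitochondrial tRNA synthetases and related enzymes 1 was higher and 3 lower, beside 21.2% and 36.5% of all loci. Their median of -0.067 on the log2 scale turned to 0.0028 on a common median and to 0.088 with the Ballgown adjustment. The lowest called log2 fold changes were those of SARS2 for serine (-0.51, limma adjusted p = 0.002) and WARS2 for tryptophan (-0.47, adjusted p = 0.028), the other lower gene was QRSL1, a subunit of the glutaminyl-tRNA amidotransferase (-0.45, adjusted p = 0.011), and CARS2 for cysteine was the higher one (0.39, adjusted p = 0.002). With the Ballgown adjustment 0 were higher and 0 lower. The WARS2 call was lost on a common median and without WT replicate 1 or 2 or KO replicate 2 or 3, with adjusted p up to 0.11. Of 8 listed genes for mitochondrial transcription and RNA processing 0 were higher and 3 lower, beside 21.2% and 36.5% of all loci. SUPV3L1, the helicase of mitochondrial RNA decay, was among the lower genes (-0.46, limma adjusted p = 0.004). So was TFB2M, a transcription initiation factor (-0.37, limma adjusted p = 0.002). Over these 5 lists 3 of 45 genes were higher and 17 lower, and the share of lower genes was close to the 36.5% of all loci. The count of lower genes fell to 11 without WT replicate 2, where the lower calls over all loci fell from 2322 to 1893.

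Nuclear regulators of mitochondrial genes were listed in part. Of 5 regulators listed among 12, 4 were called lower and 0 higher, where 36.5% and 21.2% of all loci were. With the Ballgown adjustment 1 was called lower. PPARGC1A, the coactivator of mitochondrial biogenesis, was at 8.05, 9.08 and 8.79 FPKM in WT and 2.75, 3.04 and 2.67 FPKM in KO libraries. All KO libraries were far below all WT libraries (log2 fold change -1.33, SE 0.12, limma adjusted p = 2.47e-05). MAX, the partner of MYC at E-boxes, had a log2 fold change of -0.62 (limma adjusted p = 6.89e-04), and GABPB1, a subunit of an ETS family factor, and PPRC1, a relative of PPARGC1A, were the other called genes (-0.47 and -0.41).

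Of the other gene groups tied to ribosomes and respiration, the mitochondrial transcripts and the cytosolic ribosomal proteins had medians further from 0. Of the 10 listed messenger RNAs of mitochondrial DNA, which this ribosome translates, 10 were higher, beside 21.2% of all loci. The median was 0.80 on the log2 scale, and the list was led by MT-ND4L (1.07) and MT-ND2 (0.96), both subunits of complex I. MT-ND4L was at 1970.4, 1717 and 1893 FPKM in WT and 3518, 2943 and 5740.0 FPKM in KO libraries, with KO replicate 3 the highest. The count of 10 was 7 without WT replicate 3 or KO replicate 1, and 0 with the Ballgown adjustment, where the median was 0.61. Of the mitochondrial ribosomal RNAs, looked at after their values were seen, MT-RNR2 of the large subunit was higher (log2 fold change 0.60, limma adjusted p = 0.024) and MT-RNR1 of the small subunit was not called (0.33, adjusted p = 0.19), in libraries selected for poly(A).

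Cytosolic ribosomal protein genes, which serve the other ribosome of the cell, gave 1 higher and 55 lower of 60, beside 21.2% and 36.5% of all loci. Their median log2 fold change was -0.77. RPS3A was at 1537, 1500.2 and 1432 FPKM in WT and 692, 655 and 690 FPKM in KO libraries (log2 fold change -1.13, limma adjusted p = 4.96e-06), and RPS12 had a log2 fold change of -1.11 (adjusted p = 3.13e-05). RPS26 was the one called higher (0.38, adjusted p = 0.004). A log2 fold change beyond 0.5 in size was reached by 85.0% of the cytosolic genes and by 6.56% of the mitochondrial ones, beside 33.0% of all loci. Of 50 nuclear genes for respiratory chain subunits and ATP synthase 18 were higher and 12 lower, beside 21.2% and 36.5% of all loci. Their median was 0.052. NDUFB1 (0.54, limma adjusted p = 0.006) and ATP5G2 (-0.42, adjusted p = 0.001) moved in opposite directions. NDUFA3 had the highest called log2 fold change (0.73, adjusted p = 0.039) although its groups overlapped, and the call was lost without any 1 of WT replicates 1 and 2 and KO replicates 1 and 2. ATP5F1 had a log2 fold change of -0.35 (adjusted p = 8.91e-04). On a common median the respiratory chain genes gave 19 higher and 6 lower, without WT replicate 2 they gave 14 higher and 7 lower, and with the Ballgown adjustment they gave 6 higher and 0 lower.

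**Figure D4:**
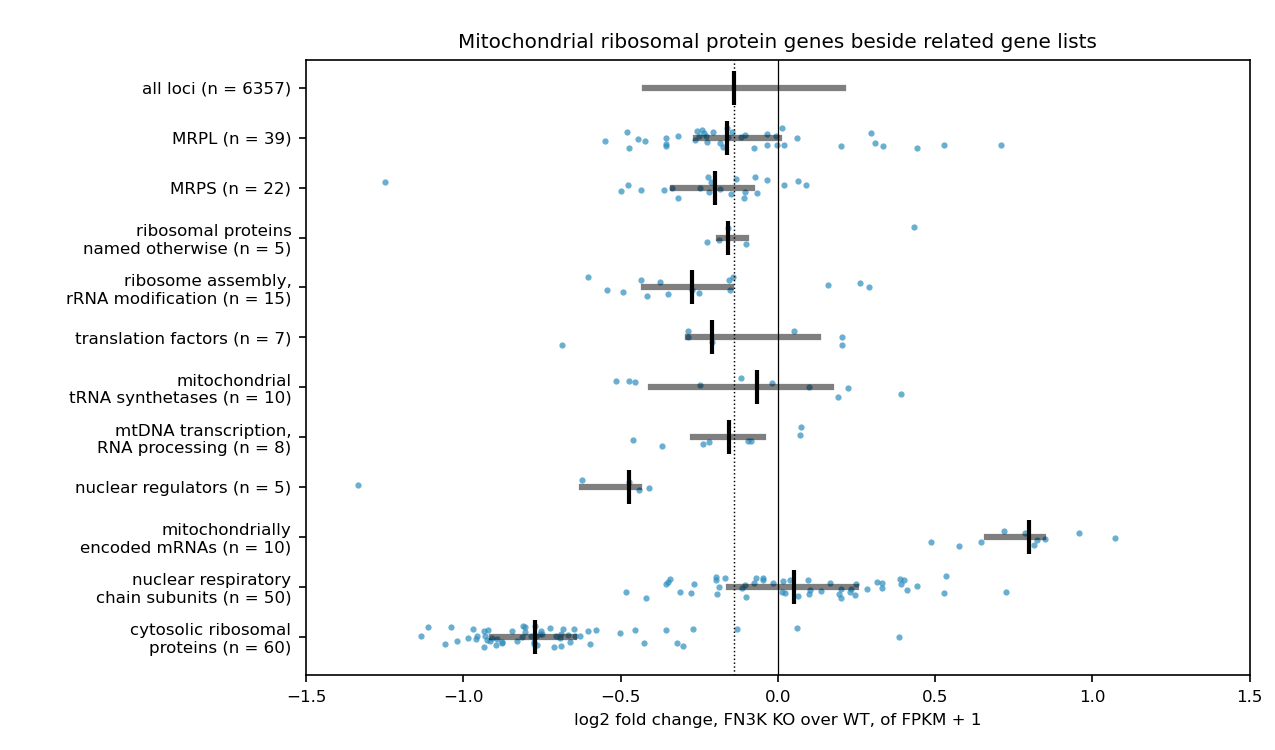
Log2 fold change (FN3K KO over WT, of FPKM + 1) of each gene in the lists named in the text, with the median (black tick) and the middle 50% (grey bar); for all loci the bar and tick alone are drawn and the dotted line repeats their median. MRPL and MRPS genes cluster near -0.17, cytosolic ribosomal protein genes near -0.77 and mitochondrially encoded mRNAs near 0.80.

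Many members share a start region with a neighbour read in the opposite direction. In the annotation 24 of the 61 members had a coding neighbour that starts within 1000 bases on the other strand, and 10 such pairs had both genes listed. In 1 pair both genes were lower, MRPL43 (log2 fold change -0.42) and TWNK, the mitochondrial DNA helicase, listed as C10orf2 (-0.81). In 1 pair the genes went opposite ways, MRPL36 (-0.23, limma adjusted p = 0.023) and NDUFS6, a subunit of complex I (0.33, adjusted p = 0.019), whose starts are 34 bases apart. NDUFS6 was at 14.8, 18.8 and 19.4 FPKM in WT and 23.1, 22.7 and 21.2 FPKM in KO libraries, and MRPL36 was at 28.1, 29.7 and 32.0 FPKM in WT and 23.8, 24.9 and 27.3 FPKM in KO libraries. The groups of neither gene overlapped. In 5 pairs the neighbour alone was called, each time lower (TCP1, NDUFB5, FAU, NCAPD2 and SARS2). In 1 pair the member alone was called, and in 2 neither, among them MRPL46 and MRPS11, which start 34 bases apart. Over all loci 57.7% were called, 21.2% higher and 36.5% lower.

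A promoter window was at hand for 53 of the 61 members, and the missing 8 were MRPL2, MRPL10, MRPL13, MRPL15, MRPL21, MRPL23, MRPL35 and MRPS36. YY1 letters were in 21 windows (39.6%) against 6.06% of the windows of all 27305 genes and 6.40% of those of 15842 coding genes. ETS letters were also in 21 (39.6%) against 10.7% of all and 14.2% of coding windows. Either motif was in 34 (64.2%) against 15.9% of all and 19.4% of coding windows, and both were in 8 (15.1%) against 0.872% and 1.27%. In the same order, NRF1 letters were in 6 (11.3%) against 4.13% and 5.14%, and E-box letters in 6 (11.3%) against 7.43% and 8.88%. The CCAAT box was in 16 (30.2%) against 35.7% and 36.4%, and the TATA box (TATAAA) in 2 (3.77%) against 12.0% and 9.63%. The ETS and YY1 motifs can share the letters AAG, which they did in 0 member windows, and a match is a description of the sequence, not a site of binding.

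Positions of the matches differed between the motifs. Of 22 YY1 matches in 21 windows 15 lay downstream of the annotated start, and the median position of all 22 was 9 bases after it. The letters AAGATGG read along the gene's own strand in 18 of the 22. They hold the triplet ATG, and whether matches coincide with translation starts was not tested. The 28 ETS matches, 14 of them along the gene's own strand, had a median position of -30 from the start. Set beside the calls, YY1 letters were in 1 of 4 windows of higher members, 7 of 18 of lower members and 13 of 31 of members not called. ETS letters were in 2 of 4, 5 of 18 and 14 of 31. By subunit, YY1 letters were in 14 of 32 large and 7 of 21 small subunit windows, and ETS letters in 12 and 9.

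**Figure D5:**
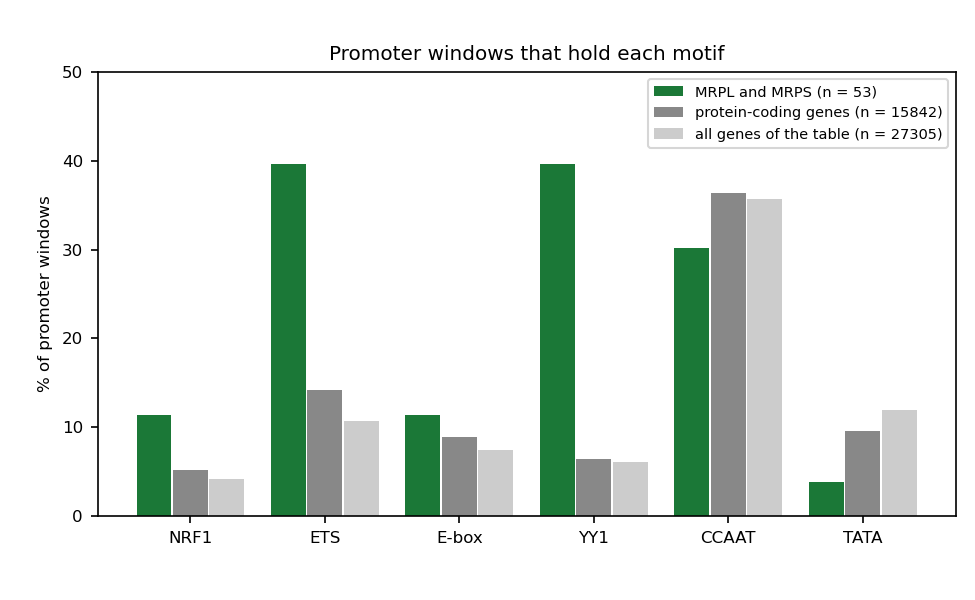
Percentage of promoter windows (300 bases) that hold each motif on either strand, for 53 members (green), 15842 coding genes (dark grey) and all 27305 genes of the RefSeq promoter table (light grey). ETS and YY1 letters are each in 39.6% of member windows, above their shares in both other sets, and the TATA box is in 3.77%.

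Some limits follow from how loci were built. Of 78 coding MRPL and MRPS symbols in the annotation, 17 were not listed by name, so the family is seen in part. Exonic bases are shared with another coding gene by 28 members, 25 have a total of 45 annotated pseudogenes, and 4 were listed under a transcript annotated as non-coding or as a decay target (MRPL18, MRPL49, MRPS14 and MRPS25), so reads may be split between copies in these genes. The strand setting of the libraries was not given, so a member and a gene that overlaps it on the other strand cannot be told apart. On the same strand MRPL38, MRPL46 and MRPL12 share 1373, 724 and 701 exonic bases with another coding gene, more than the 606 of MRPS24. MRPS5, MRPS6 and MRPL28 share 550, 273 and 223 such bases.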

How the data were processed

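RNA of 3 WT and 3 FN3K KO HepG2 libraries was selected for poly(A) and sequenced. The authors deposited FPKM values per assembled locus, made with HISAT2 and StringTie 2.0.6 on GRCh38.p5 according to the submitters' processing notes. The strand setting, the filter on loci and the sequencing depth were not given in the sources used here, so no counting interval could be computed.

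Loci were matched to MRPL and MRPS symbols by name, and coordinates and overlaps were read from GENCODE release 29. All 6357 loci were tested with limma 3.58.1 in R 4.3.3 (functions lmFit and eBayes, trend on) after a log2(FPKM + 1) transform, with Benjamini-Hochberg adjustment over the whole table and calls at 0.05. A fold change on this scale understates the change of low genes. The fit was tested on simulated data. Promoters were the first RefSeq window of each gene. Columns used were the 6 library columns alone. Pandas 2.3.3 and matplotlib 3.10.9 under Python 3.11.15 gave the tables and plots.

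The members, the lists and the tests were chosen with earlier results of these data known. Named were, in each subunit, the 4 highest and 4 lowest log2 fold changes, the 2 highest means and members called against their subunit's usual direction. MRPS18A, MRPS30 and MRPL52 were named too. The overlap with a same-strand coding gene was described for MRPS24 beside its values and for other members among the limits. Of each other list the 2 highest and 2 lowest called genes were named. A few further genes, among them the mitochondrial ribosomal RNAs, GABPB1, PPRC1, QRSL1, TTR, AFP, APOA1, HNF4A, SERPINA1 and the neighbours of members, were named after their values were seen.

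Tried in place of these settings were 0.1 as pseudocount, loci with a mean of at least 1 FPKM, a common 75th percentile, a common median, no variance trend, replicate numbers as a block, the library adjustment of Ballgown, omission of each library, the subunit by place in the ribosome and calls at a log2 fold change beyond 1 with an unadjusted p under 0.05.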

Additional observations from a re-analysis of the deposited data

How the results depend on the processing

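All 26 called members kept their direction under each alternative fit, and MRPL10, MRPL45 and MRPS27 were called in every one. Calls changed most with the library adjustment of Ballgown. This setting also gives up limma's sharing of variance, so the effects of covariate and test cannot be told apart. It left 1 higher and 4 lower members, 1 higher and 3 lower large subunit genes and 1 lower small subunit gene. In the 5 lists of other translation and RNA genes it left 1 higher and 4 lower. Of all loci it left 606 higher and 521 lower. It turned the sign of MRPL19 (0.33), MRPL47 (-0.11), MRPS25 (0.69), MRPS10 (-0.0020), MRPS7 (0.0013) and MRPS26 (0.079), none of them called. On a common 75th percentile MRPS2 came to 0.011, and on a common median MRPS2 came to 0.035 and MRPS18A to 0.0024. With each library left out in turn the lower members numbered 12 to 25, the lower large subunit genes 10 to 17, the lower small subunit genes 2 to 8 and the lower genes of the 5 lists 11 to 22, and 5 log2 fold changes crossed 0, from -0.99 to 0.00027 for MRPS25, which is listed at 0 in 2 libraries, -0.085 to 0.013 for MRPS2, -0.019 to 0.14 for MRPS36, -0.0084 to 0.17 for MRPS22 and -0.15 to 0.032 for MRPS18A. Calls at a log2 fold change beyond 1 with an unadjusted p under 0.05 left 0 higher members and 1 lower. The cause was not tested. Over 47 named genes 610 alternative values were computed, of which 542 kept direction and side of the threshold, 43 lost a call, 11 gained one and 14 changed sign. The WT and KO libraries share replicate numbers, but deviations of same-numbered libraries correlated at 0.00958, 0.00606 and 0.0458, so the numbers were not taken as pairs. A replicate block gave the members 5 higher and 23 lower, adding MRPL35 and MRPS26, whose log2 fold changes stayed at 0.71 and -0.32. Without read counts, how depth limits these values is unknown.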
